A study of Mus musculus with 4 samples.

Results

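Wells sorted as bone marrow-derived macrophages (BMDM) were set against wells sorted as microglia, both from tumor-bearing mouse brains that had received no whole brain radiation therapy (WBRT). The comparison used the plates labelled BMDM and microglia without WBRT and every well that held at least 1000 transcripts outside spike-in and mitochondrial genes with under 50% spike-in counts. This kept 234 BMDM wells and 157 microglia wells, 391 of the 804 wells kept from all 4 plates of the study. All mice were Balb/C athymic nude animals (CAnN.Cg-Foxn1nu/Crl), whose Foxn1 mutation leaves them without a working thymus and so without most mature T cells, in all groups alike. The study's design text places the cells in brain metastases of lung cancer. The tumor stage is given as small for both plates without WBRT. The other 2 plates hold BMDM and microglia labelled with 5 fractions of 2 Gy and the term d3, at a stage given as not stratified. Each group is 1 plate. The sources used here do not state how many animals were used, their sex and age, or the markers of the sort. The differences below are differences between plates and no test was made.

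Microglia are the resident macrophages of the brain parenchyma. They arise early in development, renew themselves locally and depend on signals through the receptor Csf1r and on TGF-beta. Monocytes are made in the bone marrow, leave the blood by way of integrins and chemokine receptors, and become macrophages or dendritic cells in inflamed or tumor-bearing tissue. Both share the core of the macrophage programme, and they are told apart by genes of origin, migration, adhesion and antigen presentation.

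Values are CPM, the transcripts of a gene per 1000000 endogenous transcripts of a plate, pooled over its kept wells. Fewer cells that express a gene and less RNA of it per cell cannot be told apart in such a pool. Brackets give 95% intervals, which cover only the error of counting and say nothing of other plates or animals. The BMDM plate held 1265842 transcripts with a median of 4388 per well and the microglia plate 874710 with a median of 4789. Spike-in shares (7.04% and 6.92%) and mitochondrial shares (9.04% and 10.2%) were close, while Malat1 stood at 6315 and 2114 CPM and ribosomal Rn45s at 16309 and 3523. The same 119 well positions were kept on both plates, which are positions and not shared cells. The microglia plate carried its defining markers, with Tmem119 at 514 and P2ry12 at 336 CPM. The BMDM plate had them lower, at 115 and 90.1 CPM, and carried the monocyte gene Plac8 at 698 CPM against 33.2.

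Wells of both plates were clustered together into 8 clusters. The BMDM plate was mixed: 42 of its wells fell in a cluster led by Clec10a and Cd7, 36 and 34 in a pair of dendritic cell-like clusters, 47 in a cluster led by Clec4e and Cd93, 38 in an unnamed cluster led by Lpl and Fabp5, and 6 in the microglia-like cluster. Its other wells were 22 in an unnamed cluster with Kcnq1ot1 among the leading genes and 9 in an unnamed cluster of shallow wells. Its dendritic cell-like wells held 29.3% of its transcripts. The cluster led by Clec4e and Cd93 is border-associated macrophage-like by its markers, with Mrc1, F13a1 and Stab1 enriched and Mrc1 and F13a1 among its leading genes. The monocyte markers Ccr2 and Fn1 were enriched in it as well. The Clec10a-led cluster had 6 monocyte markers (Ccr2, Plac8, Emb, Itga4, Ifitm6 and Ms4a4c) and 3 dendritic cell markers (Flt3, Kmo and Dpp4) enriched, with none of the monocyte markers among its leading genes, and is given no cell type name. Its class II levels were as high as those of the Xcr1-led dendritic cell-like cluster, with H2-Aa at 19819 and 18635 CPM. The microglia plate had 89 wells in the microglia-like cluster and 57 in that unnamed cluster of shallow wells, which held a median of only 2127 transcripts per well. Another 8 of its wells fell in the Lpl-led cluster beside the 38 BMDM wells, and they are not counted among the odd wells below. A further 3 of its wells, called the odd wells below, grouped with BMDM wells and held 2.08% of its transcripts. Of these, 2 were in the Clec10a-led cluster and 1 in the unnamed cluster with Kcnq1ot1. The deeper of those 2, called the odd Clec10a-led well below, held 0.897%. Summed markers of NK and T cells came to 110 CPM in BMDM and 52.6 in microglia, those of B cells to 10.3 and 17.1, and those of neurons to 2.37 and 12.6.

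Of 3573 genes that reached 50 CPM in a plate, 392 (11.0%) were at least 2-fold higher in BMDM and 249 (6.97%) at least 2-fold lower, both on the scale of CPM + 5. The added 5 CPM understates differences of low genes. The median log2 ratio over all 3573 genes was 0.02. With both plates set to the same spike-in total, the median rose to 0.18 and the split to 458 higher and 175 lower, so that 72.4% of the genes past 2-fold were higher in place of 61.2%. The higher side held the sharper contrasts, and 20 of its genes had 0 counts in microglia, where 3 counts correspond to 3.43 CPM. Near the limit, Psmd13 (90.1 CPM in BMDM, 42.3 in microglia) passed and Aplf (139.8 and 67.5) did not, and on the lower side Bag1 (102 and 209) passed and Kcnk6 (67.9 and 141) did not.

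Cell surface and motility genes stood out by their counts. Of 137 adhesion, actin and matrix genes, 43 were higher and 21 lower, so that 46.7% differed by at least 2-fold against 17.9% of all genes. Receptors followed with 32 higher and 22 lower of 143 (37.8%), then transcription factors with 19 and 16 of 148 (23.6%). Metabolic genes were below the share of all genes, with 18 higher and 21 lower of 311 (12.5%). The lists were chosen with earlier results of these data known, and these shares are a description.

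**Figure D1:**
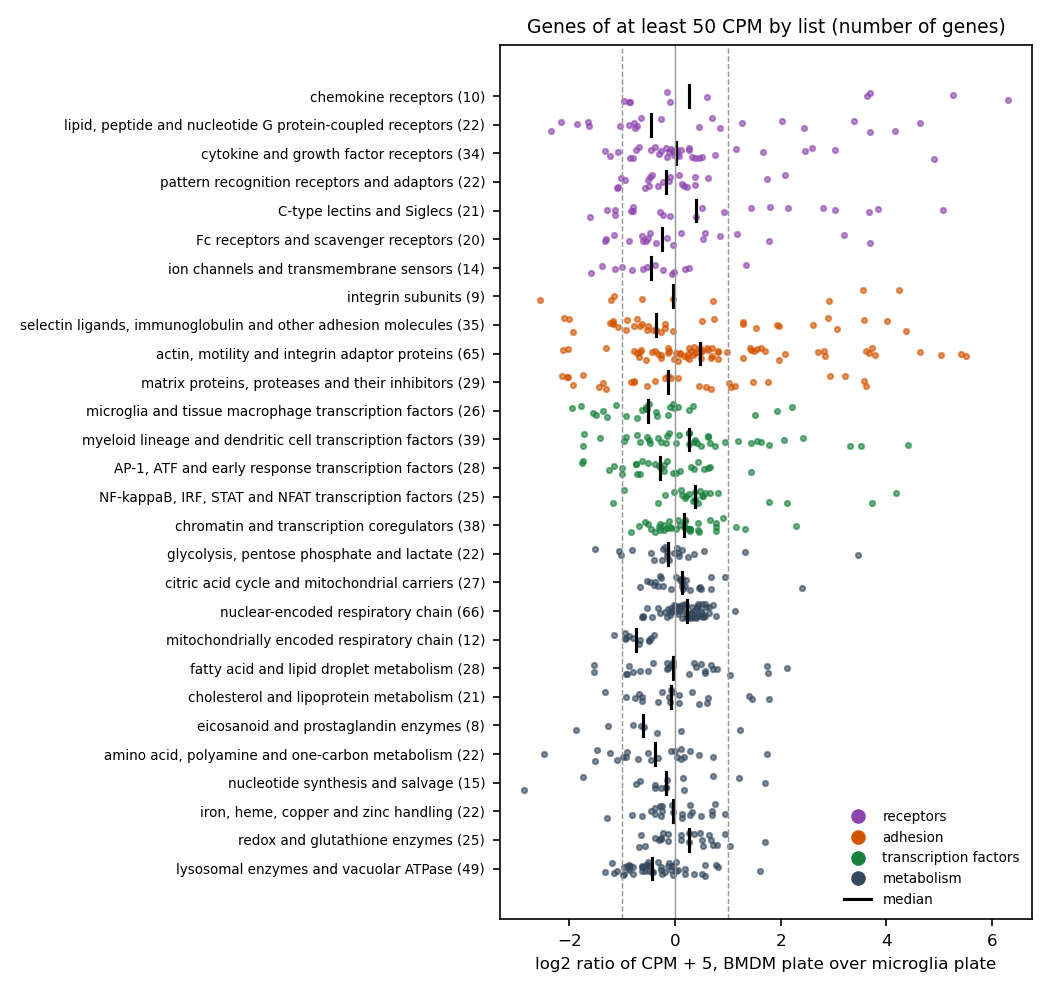
Log2 ratios of CPM + 5 (BMDM plate over microglia plate, x axis) of the genes of at least 50 CPM in each list (y axis, number of genes in brackets), coloured by family, with the list's median as a black bar and 2-fold limits as dashed lines. Receptor and adhesion lists spread widely on both sides, while 65 of 66 nuclear-encoded respiratory chain genes lie within 2-fold and all 12 mitochondrially encoded genes of the chain lie below 0.

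Dendritic cell-like wells on the BMDM plate and the 3 odd wells on the microglia plate touch many of these genes. Of the 392 higher genes, 161 had over 50% of their BMDM counts in dendritic cell-like wells, and 292 stayed at least 2-fold higher without those wells. Only 3 changed sign without them, namely Fscn1, Naaa and Arhgef40. Over 50% of the BMDM counts lay there for 25 of 43 higher adhesion, actin and matrix genes and 13 of 32 higher receptors. The same held for 9 of 19 higher transcription factors and 6 of 18 higher metabolic genes. Without those wells, 38 of the 43 stayed at least 2-fold higher. Among the 249 lower genes, 136 stayed at least 2-fold lower without those wells. Counted anew among genes of at least 50 CPM, 258 were higher and 163 lower without dendritic cell-like wells, and 190 and 142 when the Clec10a-led cluster was left out as well. The 3 odd wells bear on the microglia side: 32 of the 392 higher genes owed over 50% of their microglia counts to them, and 14 owed all. Without the 3 wells, 389 of the 392 stayed at least 2-fold higher (Jdp2, Psmd13 and Thbs1 fell just short), and the folds of some genes grew several times, as given below.

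Of the 32 higher and 22 lower receptors, 29 and 9 stayed at least 2-fold apart without dendritic cell-like wells. Of 10 chemokine receptors of at least 50 CPM, 4 were higher in BMDM and none lower. These were Ccr2, Cxcr4, Ccr7 and Xcr1. Ccr2, which draws monocytes out of the marrow and into tissue, stood at 389 CPM against 0 counts. Cxcr4, the receptor that holds cells in niches rich in Cxcl12, stood at 299.6 CPM in BMDM and 19.4 in microglia, 15.4-fold higher (9.49 to 26.7), and remained 14.3-fold higher without dendritic cell-like wells. Ccr7, the homing receptor of mature dendritic cells, had 495 CPM in BMDM and 7 counts in microglia, and 86.6% of its BMDM counts lay in dendritic cell-like wells, without which it had 94.0 CPM. On the microglia side 6 of its 7 counts came from the odd Clec10a-led well (85.7%). Ccr1, a receptor for inflammatory CC chemokines, was within 2-fold at 135 and 248 CPM, and was singled out after its values were seen. Cx3cr1, the fractalkine receptor typical of microglia, was under 2-fold lower in BMDM, at 968 against 1889 CPM.

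Receptors for nucleotides and lipids came in opposed sets. P2ry10, a leukocyte receptor for lysophosphatidylserine, stood at 175 CPM in BMDM against 2 counts (2.29 CPM) in microglia, a ratio of 76.7 (21.0 to 637), or 39.1 without dendritic cell-like wells. P2ry14, which binds UDP-glucose, stood at 57.7 and 10.3 CPM, and 71.2% of its BMDM counts lay in dendritic cell-like wells. Both ADP receptors went the other way. P2ry12, with which microglia follow nucleotides to sites of injury, was 3.73-fold lower in BMDM (3.00 to 4.67), and P2ry13 stood at 118 against 372 CPM, 3.16-fold lower (2.59 to 3.86). Gpr132, tied to the sensing of lipids and acid, stood at 149 and 6.86 CPM, with 83.3% of the microglia counts in the odd Clec10a-led well, and the ratio was 127 (22.6 to 5051) on the 1 count left without the 3 odd wells, in place of 21.7. Gpr84, a receptor for medium-chain fatty acids, was instead 4.85-fold lower in BMDM, with an interval of 3.62 to 6.58, at 47.4 against 229.9 CPM.

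Of the listed adhesion-type G protein-coupled receptors of at least 50 CPM, Cd97 and Gpr56 lay on opposite sides and Emr1 (now Adgre1) was within 2-fold. Cd97 (now Adgre5) stood at 107 CPM in BMDM and 5.72 in microglia, 18.7-fold higher (7.80 to 58.4). Gpr56 (now Adgrg1), a mark of yolk sac-derived microglia, stood at 37.9 against 214 CPM, 5.64-fold lower (4.09 to 7.91). Of its BMDM counts, 52.1% lay in the Lpl-led cluster and 22.9% in the microglia-like cluster. Gpr183, which leads cells along gradients of oxysterols, stood at 109 CPM in BMDM and 16.0 in microglia. Ch25h, the enzyme that makes the precursor of its ligand, was lower in BMDM at 22.1 against 62.9 CPM. In the whole list of 22 such receptors, 7 were higher and 6 lower, with a median log2 ratio of -0.45.

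Receptors for growth factors and cytokines included those of dendritic cell lineages on the BMDM side. Flt3, on which dendritic cell development depends, had 144 CPM in BMDM and no count in microglia, at least 41.9-fold higher. Kit, the stem cell factor receptor, stood at 52.9 and 4.57 CPM, and Il7r at 53.7 and 5.72. Dendritic cell-like wells held 73.1%, 80.6% and 79.4% of the BMDM counts of these 3 genes. The decoy receptor Il1r2 stood at 158 and 14.9 CPM, 10.6-fold higher (6.08 to 20.3), with 22.0% of its BMDM counts in those wells and 699 CPM in the Clec10a-led cluster. Csf1r, the receptor that microglia need to survive, stood at 1279 against 3223 CPM and was 2.52-fold lower in BMDM (2.37 to 2.68). Without dendritic cell-like wells, which had 269.7 and 221 CPM, the difference in Csf1r was 1.88-fold. Its ligand Csf1 was lower as well, at 24.5 against 94.9 CPM. Csf3r and Tgfbr1 were lower by 2.42-fold and 2.15-fold, at 92.4 and 171 CPM in BMDM, and also came under 2-fold without dendritic cell-like wells. Of all 34 receptors of this kind, 6 were higher and 3 lower.

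**Figure D2:**
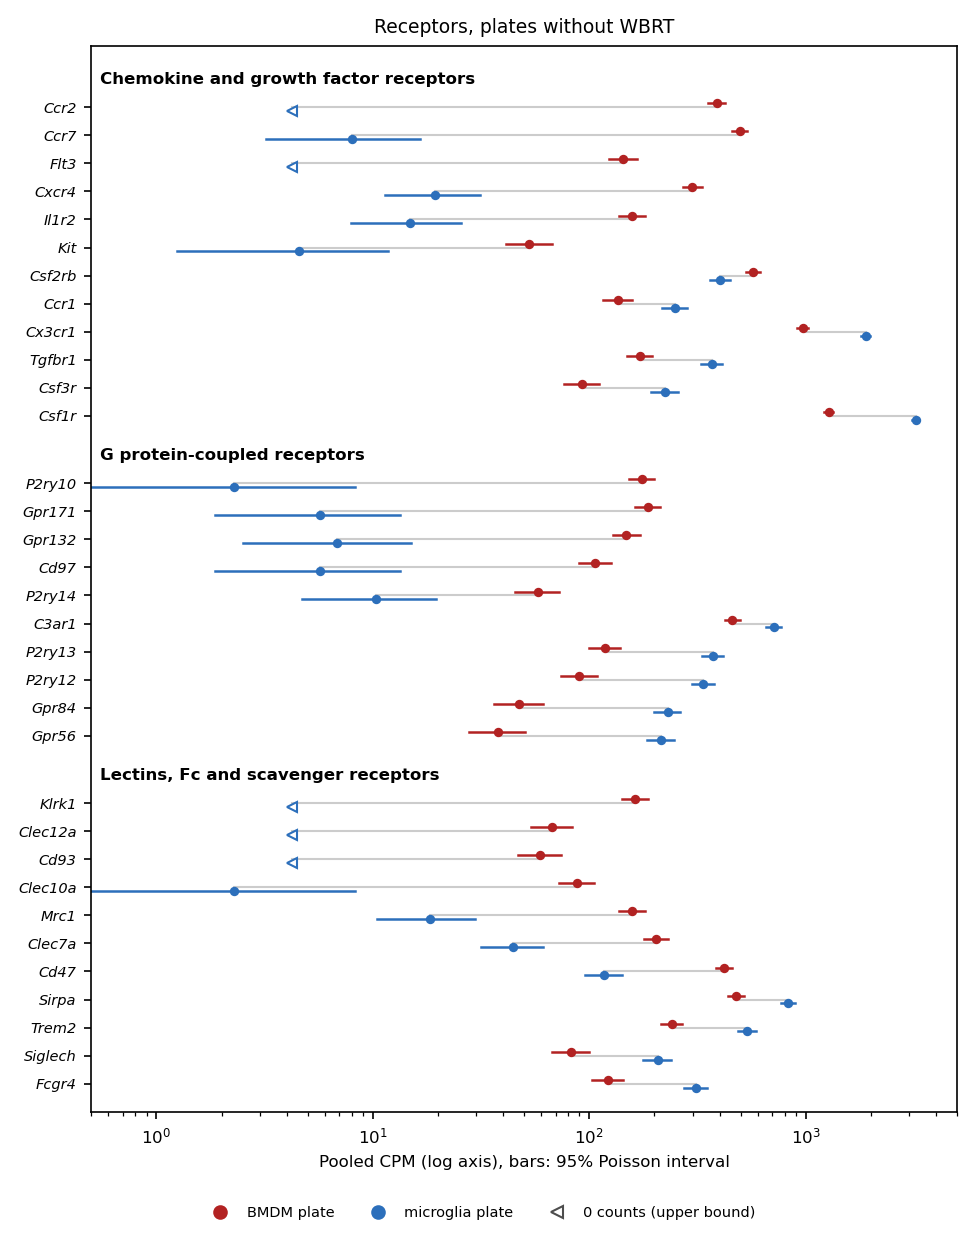
Pooled CPM (log axis) of named receptors (y axis) in the BMDM plate (red) and the microglia plate (blue), with bars for 95% Poisson intervals and open triangles for the upper bound of genes with 0 counts. Ccr2, Flt3, Klrk1, Clec12a and Cd93 had 0 counts in microglia, while Csf1r, P2ry12, Gpr84 and Gpr56 are among the receptors with higher values in microglia.

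Lectins and receptors for debris also differed between the plates, 8 higher and 4 lower of 21 for C-type lectins and Siglecs. Klrk1, known as NKG2D and best known as an activating receptor of NK cells, had 163 CPM in BMDM and 0 counts in microglia, at least 47.5-fold higher. It had 318 CPM in the Clec10a-led cluster and 338 in the Xcr1-led dendritic cell-like cluster. Clec12a (67.2 CPM), an inhibitory lectin that senses dead cells, and Cd93 (59.3 CPM) also had 0 counts in microglia, at least 19.6-fold and 17.3-fold higher. Dendritic cell-like wells held 1.33% of the BMDM counts of Cd93. The mannose receptor Mrc1 was 8.65-fold higher (5.19 to 15.4) at 158 against 18.3 CPM, with no loss when dendritic cell-like wells were left out. Mrc1 was among the leading genes of the border-associated macrophage-like cluster led by Clec4e and Cd93. Dectin-1 (Clec7a), which binds fungal glucans, stood at 204 and 44.6 CPM. Trem2, the lipid-sensing receptor of microglia, went the other way at 240.3 against 536 CPM, and was 1.64-fold lower without dendritic cell-like wells. So did the microglia lectin Siglech at 82.2 against 207, Siglec1, the inhibitory receptor Cd300lf at 109.8 against 347 and the Fc receptor Fcgr4 at 122 against 311. Of the 4 lower lectins and Siglecs, 2 stayed at least 2-fold lower without dendritic cell-like wells, Siglech and Cd300lf, and Fcgr4 came to 1.95-fold. The shared signalling adaptors of these receptors were closer: Tyrobp stood at 1102 and 1283 CPM and Fcer1g at 1011 and 1484. Cd47, the ligand that protects cells from being eaten, stood at 419.7 and 117 CPM, 3.60-fold higher in BMDM (2.91 to 4.49), while Sirpa, its receptor on macrophages, was within 2-fold at 476 and 829.

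Among integrins, 3 subunits of 9 were higher in BMDM and 3 lower. Itgb7 (chromosome 15, 102215995 to 102231944, in GRCm38), the beta chain of mucosal homing integrins, had 89.3 CPM in BMDM and 0 counts in microglia. Its partner Itgae, with which it binds E-cadherin, stood at 94.8 against 3.43 CPM, and 81.7% of its BMDM counts lay in dendritic cell-like wells. Itga4, with which Itgb7 binds addressins of the vessel wall, stood at 258 and 29.7 CPM, 8.67-fold higher (5.81 to 13.5). Itga4 encodes CD49d, which is often used to sort blood-derived from resident macrophages, and since the gate is not given its difference is not read as a result. Itgb1, the other partner of Itga4 and singled out after its values were seen, was at 209 and 214 CPM. The lower subunits bind complement fragments and matrix: Itgam stood at 482 against 1118 CPM, Itgb5 at 319 against 717 and Itgb3 at 5.53 against 57.2, which is 10.3-fold lower (4.66 to 27.0). Itgam and Itgb5 came under 2-fold without dendritic cell-like wells (1.69-fold and 1.67-fold), while Itgb3 was 8.53-fold lower without them. Itgb2, the common beta chain, differed by less than 2-fold (582 and 897 CPM).

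Other adhesion molecules repeated the division. The junctional adhesion molecule Amica1 (now Jaml), by which leukocytes cross epithelia and vessel walls, stood at 122 CPM against 1 count in microglia, a ratio of 106 with a wide interval (18.8 to 4230). Cd24a stood at 169 and 5.72 CPM and Alcam at 82.9 and 6.86, and the odd Clec10a-led well held 60.0% and 83.3% of their microglia counts. Without the 3 odd wells the ratio of Alcam was 71.0 (12.5 to 2833) on 1 count in place of 12.1, and Cd24a was at least 48.3-fold higher. The semaphorin receptor Plxnc1 stood at 82.2 and 2.29 CPM, with 78.8% of its BMDM counts in dendritic cell-like wells. The hyaluronan receptor Cd44 was 4.67-fold higher (2.80 to 8.30), at 90.8 against 19.4 CPM. The tetraspanin Cd81 was 4.05-fold lower (3.63 to 4.53), at 342 against 1383 CPM, and Icam1, a ligand of the leukocyte integrins, stood at 124 against 297. Of the BMDM counts of Cd81, 54.2% lay in the Lpl-led cluster and 11.6% in the microglia-like cluster. Selplg, the selectin ligand with which leukocytes roll, was at 476 and 638 CPM, within 2-fold. In this list of 35 genes, 11 were higher and 8 lower.

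Genes of the actin skeleton were mainly on the BMDM side, with 20 of 65 higher and 3 lower and a median log2 ratio of 0.48, or 0.31 without dendritic cell-like wells. The giant scaffold protein Ahnak had 120.1 CPM in BMDM and 0 counts in microglia, at least 35.0-fold higher. Myo1g, a membrane myosin of blood cells, stood at 273 and 16.0 CPM, and the intermediate filament gene Vim at 421 and 29.7, 14.2-fold higher (9.56 to 21.9). Tmsb10, which sequesters actin monomers, was 7.34-fold higher at 839 against 114 CPM, and 3.53-fold without dendritic cell-like wells. The membrane linkers Anxa1 and Anxa2 stood at 79.8 and 201 CPM against 1.14 and 24.0, and the single count of Anxa1 in microglia came from the odd Clec10a-led well. The calcium-binding protein S100a4, which acts on myosin filaments, stood at 259 and 9.16 CPM, a ratio of 28.3 (14.2 to 66.2), or 222 (39.6 to 8792) on the 1 count left without the 3 odd wells. The common machinery was not part of this: Cfl1 stood at 2066 and 2254 CPM, Pfn1 at 1699 and 1585, Cdc42 at 703 and 659 and Rac1 at 321 and 345. Rhob, an endosomal small GTPase that responds to stress, was 4.36-fold lower in BMDM, with an interval of 3.90 to 4.90, at 319 against 1394 CPM, Rhoh stood at 20.5 against 99.5 and the myosin Myo1e at 79.0 against 204. Fscn1, the actin bundler of dendritic cells, was 2.96-fold higher at 778 against 263 CPM, yet 0.977-fold without dendritic cell-like wells.

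**Figure D3:**
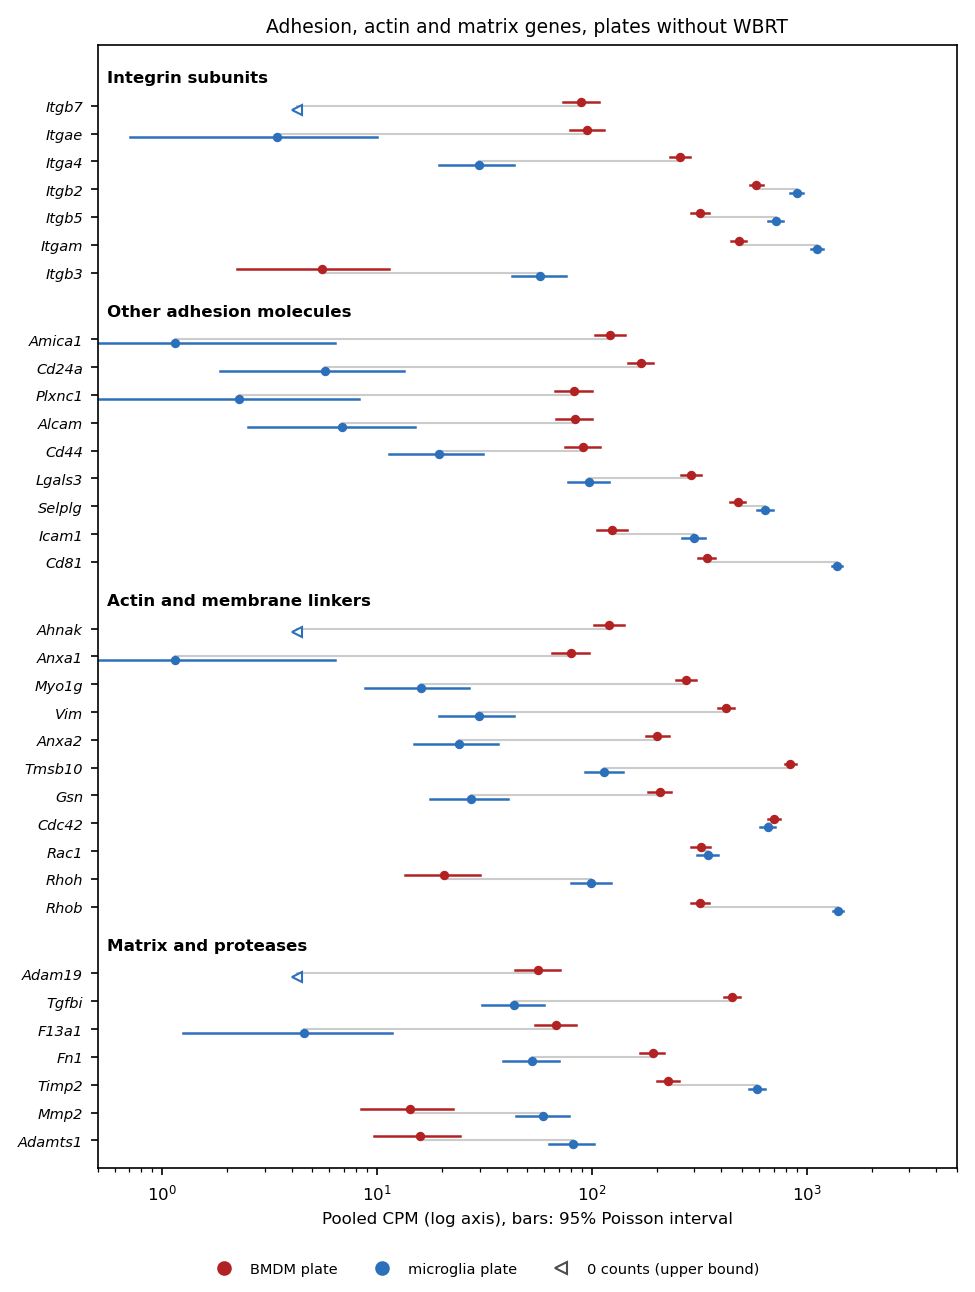
Pooled CPM (log axis) of named integrin, adhesion, actin and matrix genes (y axis) in the BMDM plate (red) and the microglia plate (blue), with bars for 95% Poisson intervals and open triangles for the upper bound of genes with 0 counts. Cdc42 and Rac1 nearly coincide, while Itgb7, Ahnak and Adam19 had 0 counts in microglia and Cd81 and Rhob lie to the right in microglia.

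Of 29 matrix, protease and inhibitor genes, 9 were higher and 8 lower. Tgfbi, a matrix protein induced by TGF-beta, stood at 448 and 43.4 CPM, 10.3-fold higher (7.42 to 14.7), with 1282 CPM in the cluster led by Clec4e and Cd93. The transglutaminase F13a1 stood at 68.0 and 4.57 CPM and fibronectin (Fn1) at 191 and 52.6. Both were enriched in that border-associated macrophage-like cluster, F13a1 as one of its leading genes. These 3 genes grew apart when dendritic cell-like wells were left out, to 12.9-fold, 20.3-fold and 4.91-fold. The metalloprotease Adam19 stood at 56.1 CPM against 0 counts. Microglia held more of the protease inhibitor Timp2 (226 against 588 CPM, 1.89-fold without dendritic cell-like wells), the gelatinase Mmp2 (14.2 against 59.4) and the secreted protease Adamts1 (15.8 against 81.2). Of the 21 adhesion, actin and matrix genes that were lower in BMDM, 11 stayed at least 2-fold lower without dendritic cell-like wells.

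Among transcription factors, several pairs of relatives lay on opposite sides. Runx3 (chromosome 4, 135120652 to 135177990), which shapes dendritic and T cell fates, stood at 199 CPM in BMDM and 4.57 in microglia, 43.5-fold higher (16.8 to 161). Its relative Runx1, the blood stem cell factor, was at 131 and 142 CPM. Spib had 52.2 CPM in BMDM and 0 counts in microglia, at least 15.2-fold higher, while its close relative Sfpi1 (PU.1), on which all macrophages depend, was at 407 and 459. Bhlhe40 and Bhlhe41 are paired repressors of the circadian and lipid programmes. Bhlhe40 stood at 159 and 37.7 CPM and Bhlhe41 at 52.9 and 193, so that Bhlhe40 made up 75.0% of the pair's counts in BMDM (69.4% to 80.1%) and 16.3% in microglia (11.5% to 22.2%). Without the 3 odd wells, Bhlhe40 was 6.80-fold higher in place of 4.21-fold. Opposite sides were also found for the ETS factors Etv3 (233 and 76.6 CPM) and Etv5 (32.4 and 94.9), and for the TGF-beta mediators Smad4 (71.1 and 21.7) and Smad3 (29.2 and 91.5). With WBRT, Etv3 made up 48.6% of its pair's counts in BMDM and 45.6% in microglia. Bhlhe40 there made up 49.0% and 4.69% of its pair, and Smad3 49.0% and 79.0%. Without WBRT, Nr4a2 stood at 298 and 60.6 CPM and its relative Nr4a1, within 2-fold, at 760.1 and 1111. Etv3 was 1.75-fold higher without dendritic cell-like wells. Runx1 and the pairings as such were singled out after their values were seen.

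The factors that were higher in BMDM came from different wells. Mxd1, an antagonist of Myc, stood at 216 and 17.1 CPM and was 12.6-fold higher (7.49 to 22.8), or 10.4-fold without dendritic cell-like wells. Jarid2, a partner of the Polycomb complex, stood at 198 and 36.6 CPM, with 499 CPM in the Xcr1-led cluster. Stat4 stood at 61.6 CPM against 0 counts, and 84.6% of its BMDM counts lay in dendritic cell-like wells, 515 CPM in the Ccr7-led cluster alone. Relb, of the alternative NF-kappaB pathway, stood at 98.7 and 25.2 CPM, 3.93-fold higher, and was 1.55-fold higher without those wells. Batf3 (54.5 and 9.15 CPM), which cross-presenting dendritic cells require, had 66.7% of its counts there. Without dendritic cell-like wells, 17 of the 19 higher factors stayed at least 2-fold higher, and 10 of the 16 lower ones stayed lower.

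The factors that were lower in BMDM included those that set microglia identity. Sall1, the zinc finger gene that keeps microglia in their resting state, stood at 27.6 against 121 CPM, 4.38-fold lower (2.97 to 6.62), and Sall3 stood at 19.7 against 67.5 CPM. Of the BMDM counts of Sall1, 71.4% lay in the Lpl-led cluster and 14.3% in the microglia-like cluster. Klf2, a quiescence factor, stood at 258 against 870.4 CPM and Tal1 at 22.1 against 84.6. The stress factors Ddit3 (50.6 against 184 CPM), Atf4 (327 against 663) and Jun (831 against 1988) and the early response gene Egr1 (1095 against 2439) were lower as well. In the list of 28 AP-1, ATF and early response factors, 6 were lower and 1 higher, the cAMP modulator Crem at 92.4 and 30.9 CPM. Klf2 and Ddit3 alone of these 6 stayed at least 2-fold lower without dendritic cell-like wells. Fos itself stood at 2418 and 2992 CPM. Factors shared by both sides included Irf8 (902 and 745 CPM), Id2 (1073 and 886) and Stat3 (563 and 483), although Irf8 and Id2 had over 50% of their BMDM counts in dendritic cell-like wells (52.4% and 54.0%).

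**Figure D4:**
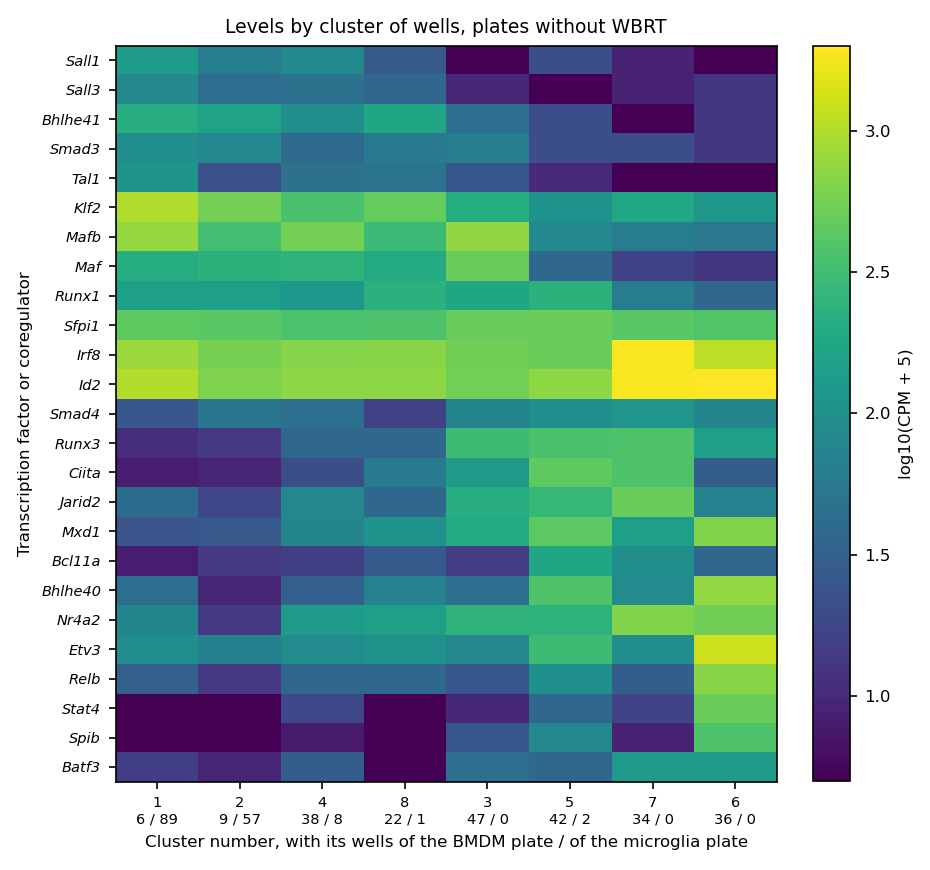
Level of named transcription factors and coregulators (y axis) in each of the 8 clusters (x axis, with wells of the BMDM plate and of the microglia plate), as log10 of CPM + 5 over all wells of the cluster, where dark is low and yellow high. Sall1, Bhlhe41 and Klf2 are highest on the left in the microglia-like cluster 1, Runx3 is at 298 to 366 CPM in clusters 3, 5 and 7, and Stat4 and Spib are brightest in cluster 6.

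Ciita, the coactivator that switches on MHC class II genes, stood at 169 CPM in BMDM and 4.57 in microglia, 37.0-fold higher (14.2 to 137). All 4 of its microglia counts came from the odd Clec10a-led well, so that without the 3 odd wells Ciita was at 0 counts and at least 48.3-fold higher. That well also held 61.9% of the microglia plate's counts of H2-Aa, 54.9% of H2-Eb1 and 75.4% of Cd74, which encode chains of the peptide receptor and its invariant chain. H2-Aa stood at 9307 and 390.2 CPM as plated, 23.9-fold higher, and was 63.8-fold higher without the 3 odd wells. H2-Eb1 (6353 and 266 CPM) went from 23.9-fold to 52.3-fold, and Cd74 (6954 and 311) from 22.4-fold to 88.9-fold. H2-DMb1, a chain of the peptide editor DM and nearly identical to H2-DMb2 so that reads may be shared, stood at 470.5 and 19.4 CPM, 24.2-fold higher. All 7 class II genes of at least 50 CPM were higher in BMDM.

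Class II genes share a promoter architecture known from textbooks, in which the factors that recruit Ciita bind a row of boxes that ends in a Y box. The Y box is an inverted CCAAT box, searched here as GATTGG and, on the other strand, CCAATC. RefSeq (GRCm38.p6) promoters of 300 bases, from 250 before to 50 after the start, were at hand for 7 of the 10 listed class II genes, and each of the 7 held the motif in at least 1 promoter. By promoter this was 7 of 8 (87.5%), against 16.1% of all 32851 promoters. Of the 7 genes with a promoter, only 4 were of at least 50 CPM and so among the higher genes above. The 150 bases before the start are shown for 3 of them, as examples of an alpha chain, a beta chain and the editor, 5′ to 3′ on the strand of the gene, with the motif in capitals. The reference is of another mouse strain than Balb/C, and a match is a description of letters.
H2-Aa, chr17:34287824-34287973, minus strand: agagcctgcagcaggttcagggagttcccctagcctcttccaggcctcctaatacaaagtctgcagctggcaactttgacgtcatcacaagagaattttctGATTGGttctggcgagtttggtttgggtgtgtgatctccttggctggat
H2-Eb1, chr17:34305717-34305866, plus strand: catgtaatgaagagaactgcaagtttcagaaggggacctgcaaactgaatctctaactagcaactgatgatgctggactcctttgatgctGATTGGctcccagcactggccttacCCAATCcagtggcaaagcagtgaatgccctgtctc
H2-DMb1, chr17:34153041-34153190, plus strand: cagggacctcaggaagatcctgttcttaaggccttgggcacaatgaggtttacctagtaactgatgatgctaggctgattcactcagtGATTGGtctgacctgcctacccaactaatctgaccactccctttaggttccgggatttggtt
The motif began at base -49 in H2-Aa, at -60 in H2-Eb1 and at -62 in H2-DMb1, counted from the start of transcription, and H2-Eb1 held a further one on the other strand at -35.

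Signalling genes downstream of receptors differed in a few members, 8 higher and 3 lower of 58. The Src kinase Fyn had 105 CPM in BMDM and 0 counts in microglia, at least 30.6-fold higher. Jak2, the kinase of many cytokine receptors, stood at 269 and 49.2 CPM, 5.48-fold higher (3.98 to 7.71), or 2.98-fold without dendritic cell-like wells, with 1047 CPM in the Ccr7-led cluster. Pim1, a kinase induced by Jak signals, stood at 359 and 62.9 CPM and Traf1 at 126 and 4.57. The feedback inhibitors of growth factor signalling were on the other side: Spry1 stood at 10.3 against 53.7 CPM and Dusp6 at 166 against 376. The adaptor Blnk was the third lower gene, at 66.4 against 157 CPM. Of these 3, Spry1 alone stayed at least 2-fold lower without dendritic cell-like wells. The phosphatase Dusp1 was at 665 and 698.

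Cytokines and growth factors were lower in BMDM in the larger number, with 6 of 14 lower and 1 higher. Il1a stood at 152 against 612 CPM and Tnf at 86.1 against 347, both 4.03-fold lower, and Osm at 205 against 521. Of the 6, 4 stayed at least 2-fold lower without dendritic cell-like wells, and Osm was 1.93-fold lower. Il1b was at 2418 and 1953 CPM, within 2-fold. The higher member was Ltb, the lymphotoxin chain, at 61.6 CPM against 2 counts. Of 13 chemokines, 3 were higher (Cxcl2, Ccl22 and Cxcl16) and 5 lower (Cxcl13, Ccl4, Ccl3, Ccl12 and Ccl2). Their median log2 ratio was 0.17, and 8 of the 13 were above 0. The neutrophil attractant Cxcl2 stood at 228 and 42.3 CPM, 5.38-fold higher (3.81 to 7.79), with 767 CPM in the cluster led by Clec4e and Cd93 and 15.9 in the Clec10a-led cluster. Ccl22, a chemokine of mature dendritic cells, stood at 109 against 5.72 CPM, and its log2 ratio was -0.23 without dendritic cell-like wells and the Clec10a-led cluster. Ccl4 and Ccl3, inflammatory chemokines of macrophages, stood at 675 and 448 CPM against 2696 and 1691, and the B cell attractant Cxcl13 at 685 against 5176, 7.56-fold lower (7.03 to 8.14). Of the BMDM counts of Cxcl13, 39.5% lay in the Lpl-led cluster and 24.6% in the microglia-like cluster. Ccl2, the ligand of Ccr2, stood at 246 against 547 CPM, and was 1.75-fold lower without dendritic cell-like wells. Of the 5 lower chemokines, 3 stayed past 2-fold without them. Of 13 complement and coagulation genes, 6 were lower, among them C4b (61.6 against 212 CPM) and C3 (65.6 against 160.1). Only C4b of these 6 stayed at least 2-fold lower without dendritic cell-like wells. The 1 that was higher, properdin (Cfp), stood at 134 and 14.9 CPM, 8.99-fold apart.

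Most metabolic genes lay within 2-fold, and the differences lay in single enzymes. Without dendritic cell-like wells, 12 of the 18 higher and 11 of the 21 lower metabolic genes stayed past 2-fold. Glycolysis had 2 higher and 3 lower genes of 22, with Aldoa at 491 and 494 CPM, Gapdh at 607 and 697 and Ldha at 454 and 429. Isoenzymes differed: Pfkp, the platelet-type phosphofructokinase, stood at 63.2 CPM against 1 count in microglia, a ratio of 55.3 (9.64 to 2210), and that count came from the 3 odd wells. The liver-type Pfkl was at 76.6 and 73.2 CPM, and was singled out after its values were seen. Ldhb, the lactate dehydrogenase chain that favours lactate use, was 3.00-fold lower in BMDM, with an interval of 2.30 to 3.93, at 67.1 against 201 CPM, and the hexokinases Hk2 and Hk3 stood at 117 and 60.0 against 249 and 127, or 1.77-fold and 1.60-fold lower without dendritic cell-like wells. Taldo1 of the pentose phosphate path was 2.55-fold higher at 425 against 167 CPM, and 1.64-fold without dendritic cell-like wells.

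The respiratory chain split by genome. All 12 mitochondrially encoded genes of the chain of at least 50 CPM were lower in BMDM, with log2 ratios from -1.14 to -0.39 and a median of -0.73. The 13 such genes found summed to 51391 CPM in BMDM and 85970 in microglia. All mitochondrial transcripts together made up 9.04% and 10.2% of the plates. The mitochondrial transcripts outside these genes were thus higher in BMDM. The cytochrome b gene mtCytb stood at 4247 against 9389 CPM, 2.21-fold lower (2.14 to 2.29), and the oxidase subunit mtCo1 at 9214 against 12691. Of 66 nuclear-encoded genes, 51 were above 0, with a median log2 ratio of 0.22, and 1 passed 2-fold, the Rieske protein gene Uqcrfs1 at 96.4 and 41.2 CPM. Cox4i1 (345 and 334), Cox8a (426 and 445) and Atp5b (362 and 343) were close to equal. The nuclear median depended on the weighting of wells and was -0.01 when every well counted alike. Without dendritic cell-like wells the mitochondrial median was -0.62 and the nuclear one 0.21.

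Single enzymes of lipid, amino acid and nucleotide metabolism lay on both sides. Pla2g7, which breaks down platelet-activating factor, stood at 378 and 83.5 CPM, 4.53-fold higher (3.53 to 5.87), with 1083 CPM in the cluster led by Clec4e and Cd93. Lipoprotein lipase (Lpl) stood at 307 and 88.1 CPM, with 921 CPM in the cluster it leads and 47.6 in the Clec10a-led cluster. Of 8 eicosanoid enzymes 1 was higher and 2 lower: Alox5ap, which hands arachidonic acid to lipoxygenase, was higher in BMDM (312 and 130.3 CPM), while leukotriene C synthase Ltc4s (56.1 against 142) and cyclooxygenase Ptgs1 (79.0 against 304, 3.85-fold lower) were lower. Of these 3, Ptgs1 alone stayed past 2-fold without dendritic cell-like wells, and Alox5ap came to 1.92-fold. With WBRT Alox5ap was within 2-fold, at 308 and 202 CPM. Slc1a3, a glutamate transporter (chromosome 15, 8634124 to 8710764), stood at 12.6 against 92.6 CPM, 7.33-fold lower (4.25 to 13.4), and Glul, which turns glutamate into glutamine, at 301 against 848. Slc1a3 was among the leading genes of the microglia-like cluster. Astrocytes are rich in both Slc1a3 and Glul. The 10 astrocyte markers found summed to 37.1 CPM in BMDM and 113 in microglia, of which Slc1a3 itself made up 92.6, and Aqp4, Gja1 and Clu had 0 counts in microglia. Their part was not tested. The serine synthesis enzyme Psat1 stood at 37.1 against 115 CPM, and the arginine synthesis enzyme Ass1 was higher in BMDM, at 142 and 38.9. Samhd1, which degrades the building blocks of DNA, was 3.32-fold higher (2.73 to 4.07), at 463 against 139 CPM. Rrm2, which makes those building blocks and marks cells in S phase, was 9.43-fold lower (5.70 to 16.4), at 14.2 against 134 CPM, with 366 CPM in the unnamed cluster of shallow microglia wells. Cybb, the core of the phagocyte oxidase, stood at 779 and 375 CPM and was 2.77-fold higher without dendritic cell-like wells.

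Lysosomal genes leaned to microglia without passing 2-fold in most cases. Of 49 genes, 37 were below 0, with a median log2 ratio of -0.43, or -0.17 without dendritic cell-like wells. The protease Ctsd stood at 5178 against 9421 CPM, and dendritic cell-like wells held 3.62% of its BMDM counts. The genes that passed 2-fold included progranulin (Grn, 2184 against 4699 CPM), the sialidase Neu1 (46.6 against 112) and the cathepsin Ctso (19.7 against 50.3). None of the lower calls in this list held without dendritic cell-like wells. Lamp1, the coat protein of the lysosome, was at 862 and 1070. The gene that was higher, Lyz1 (1511 and 489.6 CPM), is nearly identical to Lyz2, so reads may be split between them. Lysosomal genes are known to share the motif TCACGTG, read as CACGTGA on the other strand, the core of the element that Tfeb binds. It was found in promoters of 12 of the 43 lysosomal genes matched in RefSeq, 26.1% of their 46 promoters, and in 3.77% of all promoters of the same 300 bases. A pair is shown in the same way as above, Lamp1 because it holds the motif at 4 places and Ctsd because it is an abundant protease. Both were within 2-fold.
Lamp1, chr8:13159011-13159160, plus strand: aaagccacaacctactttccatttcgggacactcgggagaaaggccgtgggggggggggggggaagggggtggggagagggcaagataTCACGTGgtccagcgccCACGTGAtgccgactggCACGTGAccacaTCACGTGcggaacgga
Ctsd, chr7:142387828-142387977, minus strand: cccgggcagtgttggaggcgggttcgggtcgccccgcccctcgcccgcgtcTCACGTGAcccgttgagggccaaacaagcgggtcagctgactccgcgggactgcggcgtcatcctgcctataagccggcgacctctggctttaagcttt
In Ctsd the capitals are a single run that matches on both strands, at -99 and -98.

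The same contrast was read in the pair of plates with WBRT, which share no plate with the pair above. There 303 of 3679 genes (8.24%) were at least 2-fold higher in BMDM and 244 (6.63%) lower. Treatment, plate and tumor stage cannot be told apart between the pairs, and the microglia plate with WBRT was shallow and rich in spike-in counts (30.6%). Of the 392 higher genes, 336 had the same sign with WBRT and 181 were again at least 2-fold higher. Of the 249 lower genes these numbers were 212 and 109. In the opposite direction, 11 of the higher and 4 of the lower genes (Cd300lf, Oasl1, Rtp4 and Wdr41) were at least 2-fold apart with WBRT. Among families, 24 of 32 higher receptors and 28 of 43 higher adhesion genes passed 2-fold again, against 6 of 18 higher metabolic genes. Among the lower, these counts were 9 of 22, 15 of 21 and 10 of 21.

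Single genes are given in the same order, BMDM first. Ccr2 stood at 969 CPM in BMDM and 6.16 in microglia with WBRT, Runx3 at 208 and 1.54, Cxcr4 at 461 and 40.1, Tgfbi at 1388 and 63.2 and Cd93 at 548 and 26.2. Genes of the Ccr7-led wells had lower values in the BMDM plate with WBRT, with Ccr7 itself at 1.19 CPM against 0 counts, Stat4 at 7.56 CPM and Spib at 0.796 against 3.08. Klrk1 stood at 17.9 CPM with WBRT and P2ry10 at 29.5, both against 0 counts. On the lower side Gpr56 (17.1 against 123 CPM), P2ry12 (75.2 against 466), Cd81 (313 against 1645) and Tnf (179.7 against 1033) kept their direction. Slc1a3 stood at 3.98 against 466 CPM there, beside the astrocyte genes Aldoc at 279 and Atp1b2 at 272 CPM in the microglia plate with WBRT, whose part was not tested. Clec7a, higher in BMDM without WBRT, stood at 236 against 384 CPM with it.

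**Figure D5:**
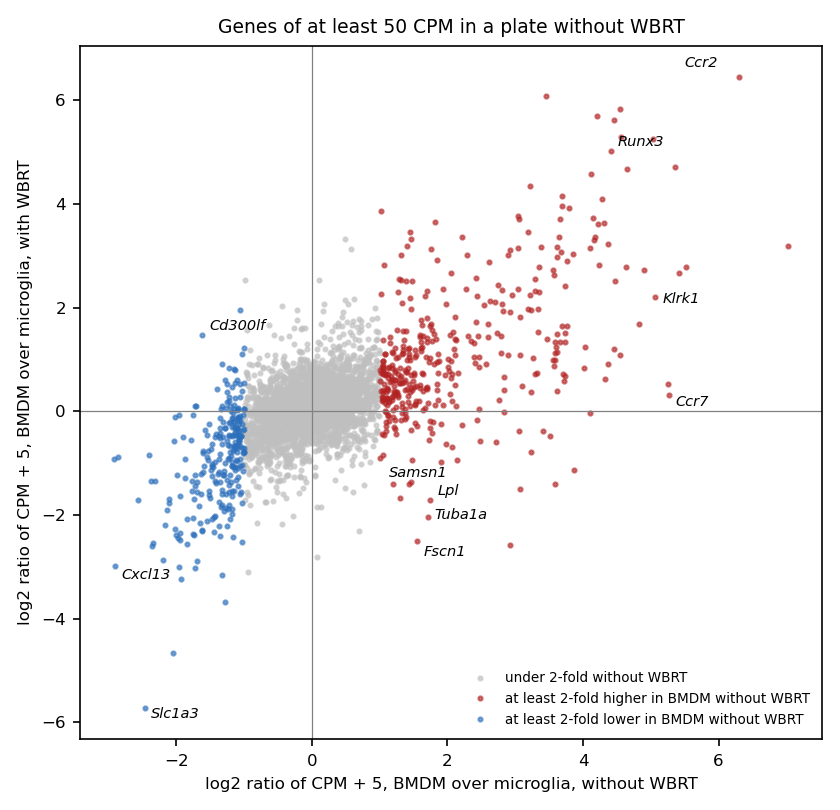
Log2 ratio of CPM + 5, BMDM over microglia, in the plates without WBRT (x axis) and with WBRT (y axis) for the 3573 genes, with those at least 2-fold higher in BMDM without WBRT in red and those at least 2-fold lower in blue. Most red points lie above 0 on both axes (336 of 392), while Ccr7 lies near 0 with WBRT and Fscn1, Lpl, Samsn1 and Tuba1a lie below.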

How the data were processed

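Single cells were sorted into 384-well plates and sequenced after a plate method with molecular identifiers, per the labels' protocols. The authors deposited tables of estimated counts, 1 for each gene in each well, whose values match identifier counts corrected for chance coincidence among 4096 identifiers. The genome build was GRCm38, per the submitters' processing notes, and for the aligner, counter, annotation and use of strand the sources used here give nothing. Wells of at least 1000 transcripts and under 50% spike-in counts were kept, summed per plate and scaled to CPM. Genes of at least 50 CPM in 1 plate were compared, and at least 2-fold on CPM + 5 is called higher or lower. Intervals are exact Poisson, conditional binomial or Clopper-Pearson intervals at 95%. A gene at 0 counts was set to 3 counts over the plate for a lower bound. Wells of both plates were clustered with scanpy 1.11.5 (2000 variable genes, 30 components, resolution 1), no doublet caller was run, and clusters were named from marker lists unless their leading genes went against the name. Python 3.11.15, scipy 1.17.1 and, for TMM factors only, edgeR 4.0.16 were used. The steps were tested on simulated data. The genes, lists and rules were chosen with earlier results of these data known. Named genes are up to 6 higher and 6 lower per list by log2 ratio, members at 0 counts in a plate, members within 2-fold at 300 CPM or more in both plates, genes near the limit and, outside the lists, the 25 highest and 25 lowest of at least 100 CPM. Of 1582 list entries, 145 were not found in the files. Alternatives covered filters, scaling, thinning to 1000 transcripts and sets of wells.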

Additional observations from a re-analysis of the deposited data

Results flagged for a closer look

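For 5 genes of the lists the BMDM plate was at least 2-fold to one side of the microglia plate without WBRT and at least 2-fold to the other side with WBRT. The differences were not tested, because each group is 1 plate, and treatment, tumor stage and plate cannot be told apart. Fscn1, an actin bundler, stood at 778 against 263 CPM without WBRT and 50.6 against 308 with it, a difference in log2 ratio of 4.04. The tubulin gene Tuba1a stood at 142 against 40.0 CPM and 39.0 against 175, a difference of 3.74. Lipoprotein lipase (Lpl) stood at 307 against 88.1 CPM and 266 against 884, a difference of 3.46. The adaptor Samsn1 stood at 228 against 81.2 CPM and 47.4 against 134, a difference of 2.84. Cd300lf, an inhibitory receptor, went the opposite way, with 109.8 against 347 CPM without WBRT. With WBRT it had 64.1 CPM in BMDM against 13 counts in microglia, a difference in log2 ratio of -3.08. Dendritic cell-like wells held 76.6%, 66.7% and 68.4% of the BMDM counts of Fscn1, Tuba1a and Samsn1 without WBRT. For Lpl and Cd300lf these shares were 5.14% and 15.1%. Single wells held 15.8% of the Lpl counts in BMDM and 16.9% in microglia without WBRT.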

How the results depend on the processing

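Each group is 1 plate, so no value has a replicate check. No paired analysis was possible because each group holds 1 sample. Against 392 genes higher and 249 lower in BMDM as reported, the counts were 730 and 548 in wells thinned to 1000 transcripts, 682 and 449 for genes of at least 20 CPM, 196 and 150 at 100 CPM, 1080 and 666 with every gene with a count, and 222 and 60 at 3-fold. They were 258 and 163 without dendritic cell-like wells, and 830 and 734 for the BMDM wells of the Clec10a-led cluster over microglia-like wells. Fewer or more genes entered with the CPM limits, and the cause of the other shifts was not tested. The median log2 ratio of cytokines was 0.000171 with every gene with a count in place of -0.63. Without dendritic cell-like wells the log2 ratios of Arhgef40, Fscn1 and Naaa were -0.20, -0.032 and -0.62 in place of 1.05, 1.55 and 1.09. In Clec10a-led over microglia-like wells, those of Ctso, Cxcl2, Fscn1, Lpl, Lyz1, Naaa, Oasl1 and Thbs1 were 0.086, -1.44, -0.57, -0.71, -0.35, -0.58, 0.080 and -0.030, against -1.16, 2.30, 1.55, 1.75, 1.62, 1.09, -1.07 and 1.02 as reported. The settings without the 3 odd microglia wells (407 and 266), without the unnamed clusters 2 and 8 (425 and 339), and without dendritic cell-like wells and the Clec10a-led cluster (190 and 142, with Arhgef40 at -0.57, Naaa at -0.64 and Ccl22 at -0.23), were chosen after seeing the data. Values of low genes are limited by depth, since 3 counts are 2.37 CPM in BMDM and 3.43 in microglia.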

Other observations

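Genes outside the lists gave further contrasts between the BMDM and microglia plates without WBRT. The aspartic protease Napsa stood at 156 CPM in BMDM against 2 counts in microglia, a ratio of 68.4 (18.7 to 569), and both counts came from the odd Clec10a-led well. Gcsam, a signalling adaptor named for germinal centres, had 111 CPM in BMDM and 0 counts in microglia, at least 32.5-fold higher. The calcium channel subunit Cacnb3 stood at 230.0 CPM against 1 count, which lay in the 3 odd wells, and 82.1% of its BMDM counts lay in dendritic cell-like wells. The interferon-induced membrane protein Ifitm1 stood at 592 and 25.2 CPM, 23.5-fold higher (15.4 to 37.8).

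On the microglia side, the glucose-responsive factor Mlxipl stood at 34.0 against 194 CPM, 5.72-fold lower in BMDM (4.07 to 8.19). Lag3, better known as an inhibitory receptor of T cells, stood at 47.4 against 255 CPM, 5.38-fold lower (4.03 to 7.28). The surface sialomucin Cd34 was lower as well at 31.6 against 115 CPM, and so was the transmembrane protein Plxdc2 at 72.7 against 255. The Lpl-led cluster held 55.8%, 63.3%, 42.5% and 64.1% of the BMDM counts of Mlxipl, Lag3, Cd34 and Plxdc2.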
